A study of Mus musculus with 9 samples.

Results

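The comparison described here set 3 cell lines grown out of brain metastases against 3 grown out of lung metastases of the same mouse breast cancer, and asked which genes differ between the metastatic origins. The 6 arrays were those titled 4T1-BM2 (brain) and 4T1-LM2 (lung), out of 9 arrays in the series. The other 3 arrays, titled 4T1-T2, came from primary tumors and were used for the spread and as a reference point. All probe sets with exactly 1 gene symbol were taken, and each gene was represented by its probe set with the highest mean over the 9 arrays. This gave 19938 genes out of 35557 probe sets. 4T1 is a mammary carcinoma line of the mouse that spreads spontaneously from the mammary gland, and no genetic change or drug treatment is named for any group. The tumors came from 9 different mice, 1 line each, and the 9 lines were thawed, grown and extracted side by side. The values are therefore those of cancer cells in culture, away from brain or lung tissue. The 3 lines of an origin carry 1 line name, and whether they descend from a common selected ancestor is not given in the sources used here, so the p-values measure the spread between these lines only.

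Cells that leave a breast tumor meet very different tissues in brain and lung. The brain is closed off by the blood-brain barrier, makes its own cholesterol and has a basement membrane chiefly along its vessels, whereas the lung capillary bed is open, rich in elastic and collagen matrix and high in oxygen. Genes that have been studied in such spread include matrix proteases, prostaglandin enzymes, Id factors, chemokines and the targets of the co-activator YAP, which acts with TEAD factors downstream of cell density and tension.

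The deposited values are RMA levels on a log2 scale, so a difference of 1 is a 2-fold difference. A level near 4.18, the median of the probe sets with no gene symbol, was treated as background, and for a gene whose mean in either origin was under that median the levels are given without a fold. The array medians lay between 5.06 and 5.18. Brain line 3 and lung line 1 stood farthest from the other arrays, with array weights of 0.600 and 0.480 where the others ranged from 0.817 to 1.82. A principal component analysis of the 6 arrays separated the origins on its first axis (45.2% of variance), from -24.6 to -7.29 in brain and from 10.1 to 19.98 in lung lines. Markers of mammary carcinoma epithelium (8 of 8 measured) averaged 10.8 to 11.1 in brain, 10.4 to 10.6 in lung and 10.2 to 10.6 in primary lines. Averages of the neuron, astrocyte, oligodendrocyte, microglia, leukocyte, endothelium, fibroblast and lung epithelium lists lay between 3.92 and 5.50 in every line. Below background in every origin were 3 of 8 neuron markers, 3 of 8 of astrocytes (Aqp4, Aldh1l1 and S100b), 2 of 7 of oligodendrocytes, 3 of 9 of microglia, 5 of 9 of leukocytes (Ptprc among them), 3 of 8 of endothelium (Kdr, Tek and Emcn), 3 of 10 of fibroblasts and 2 of 10 of lung epithelium (Scgb1a1 and Scgb3a2). Other members of these lists were well above it, with means by origin of 10.96 to 11.13 for Gja1, 7.12 to 7.75 for Aldoc, 7.58 to 8.15 for Cnp, 7.30 to 7.57 for Pdgfra and 6.01 to 6.15 for Cd68. Of all those lists 1 member passed the test, the oligodendrocyte marker Cnp, which was lower in brain lines by 0.47 ± 0.09 (adjusted p = 0.0362), a call lost without any brain or lung line or primary line 1 (up to 0.129) and with each array centred on its median (0.0607).

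Between brain and lung lines 395 genes passed the test (limma, Benjamini-Hochberg adjusted p under 0.05), which is 1.98% of the genes tested. Of these, 182 were higher in brain lines (0.913%) and 213 lower (1.07%), and 90 differed at least 2-fold, 45 in each direction. The median absolute difference was 0.62 among the genes that passed and 0.09 over all genes. Values of the 3 brain and 3 lung lines did not overlap in 3368 genes, 16.9% of those tested, and the 395 were all among them. In a bulk measurement of a culture, fewer cells of a type and less RNA per cell cannot be told apart. With the mouse number as a block the counts were 274 higher and 292 lower.

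The number of genes that passed depended on the fit. It was 69 without lung line 2, 136 without lung line 1, 142 without lung line 3, 208 without brain line 2 and 217 without brain line 3, 107 when only the 6 arrays were fitted, and 92 probe sets when all 35557 were tested together. The sign of the 395 could not change in these fits, because the brain and lung values of each gene do not overlap. For 53 genes, 25 higher and 28 lower, the call held in each of 14 refits: the 9 that leave out 1 line, 2 other scalings, the mouse-number block, the 6 arrays alone and all probe sets. Such genes are referred to below as holding in all 14 refits, and for other genes the lines whose removal ended the call are named with the highest adjusted p among those fits. Of the 99 genes chosen by rule for naming that passed, 41 also passed with the 6 arrays alone and 34 over all probe sets. The fit without variance moderation is not among the 14 refits. In it 2 of the 395 genes still passed, and 0 of these 99.

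The rises are described first for genes that held in all 14 refits and then for others of like size. Ccnd2, encoding cyclin D2, which drives cells from G1 into DNA replication, was measured at 9.66, 9.85 and 9.31 in brain lines 1, 2 and 3 and at 7.69, 7.32 and 7.33 in the lung lines. The groups were separated by more than 1 unit, and the difference was 2.16 ± 0.21 (SE), a 4.46-fold higher mean (adjusted p = 0.00315). Podnl1, a secreted leucine-rich matrix protein, stood at 9.25, 9.32 and 9.18 in brain lines against 7.12, 7.10 and 7.50 in lung lines, 4.02-fold higher (adjusted p = 0.00203). Gadd45b, a stress-induced partner of MAP kinase kinases, reached 9.92, 10.21 and 10.48 in brain lines and 8.32, 8.41 and 8.60 in lung lines, a 3.39-fold difference with an adjusted p of 0.00187. All 3 brain lines were above all lung lines for each of these genes, with a spread within an origin that was small beside the gap. Rgs16, which switches off G protein signaling, was 2.91-fold higher (8.84, 9.69 and 9.37 against 7.69, 7.78 and 7.81), and the zinc importer Slc39a4 was higher by 1.46 ± 0.16 on the log2 scale. These 5 genes held in all 14 refits. Moxd1, a homolog of dopamine beta-hydroxylase, was 4.38-fold higher (8.04, 8.37 and 9.11 against 5.88, 6.61 and 6.63), with an adjusted p of 0.00946 that became 0.0507 with the 6 arrays alone and 0.0502 over all probe sets.

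Larger differences were less stable for some genes. Rab25, a GTPase that returns integrins to the surface of epithelial cells, had the largest rise, from 5.07, 5.24 and 5.36 in lung lines to 7.71, 7.96 and 6.92 in brain lines (4.96-fold, adjusted p = 0.0221). Its call was lost without brain lines 1 or 2 or any of the lung lines, with adjusted p up to 0.0957. Fgfbp1, which frees fibroblast growth factors from the matrix, was 4.53-fold higher (adjusted p = 0.0193), a call lost without lung line 1 or 2 (up to 0.0905). Igfbp7, a secreted protein of vessel and tumor matrix, was 3.20-fold higher (adjusted p = 0.0211), lost without brain lines 2 or 3 or lung lines 1 or 2 (up to 0.0800). For each of these the 3 brain values still lay above the 3 lung values.

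Genes lower in brain lines were led by a urea transporter and a prostaglandin enzyme. Slc14a1, which carries urea across the membrane, fell from 8.39, 8.02 and 7.51 in lung lines to 5.29, 4.97 and 4.55 in brain lines, a difference of -3.04 ± 0.23 or 8.24-fold (adjusted p = 0.00187). Ptges, the inducible synthase that makes prostaglandin E2, was at 5.62, 5.77 and 5.45 in brain and 7.91, 8.12 and 8.14 in lung lines, 5.45-fold lower (adjusted p = 0.00187). Ptgs2, the cyclooxygenase acting before it, did not pass and had a difference of 0.53 in the other direction (adjusted p = 0.132). Ptges was the only 1 of 20 prostaglandin genes that passed, where 1.07% of all genes were lower. Dll4, a membrane-bound Notch ligand, was 3.31-fold lower in brain lines (5.20, 5.54 and 5.65 against 7.11, 7.33 and 7.13, adjusted p = 0.00584). Abcc3, an exporter of conjugated bile acids and drugs, was 3.06-fold lower (5.22, 5.14 and 4.80 against 6.41, 6.75 and 6.86, adjusted p = 0.00377). Within each origin the lines lay close together, and no brain line reached the lowest lung line. Osmr, the receptor subunit for oncostatin M, was 2.16-fold lower (5.59, 5.63 and 5.79 against 6.62, 6.95 and 6.77, adjusted p = 0.00499). Angpt1, the ligand of the endothelial receptor Tie2, was at background in brain lines (3.83, 3.64 and 4.21) and at 5.69, 5.89 and 6.10 in lung lines. Akip1, which binds protein kinase A, was likewise at 3.70, 3.82 and 3.71 against 5.34, 6.13 and 5.25. All of these except Ptgs2 held in all 14 refits.

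**Figure D1:**
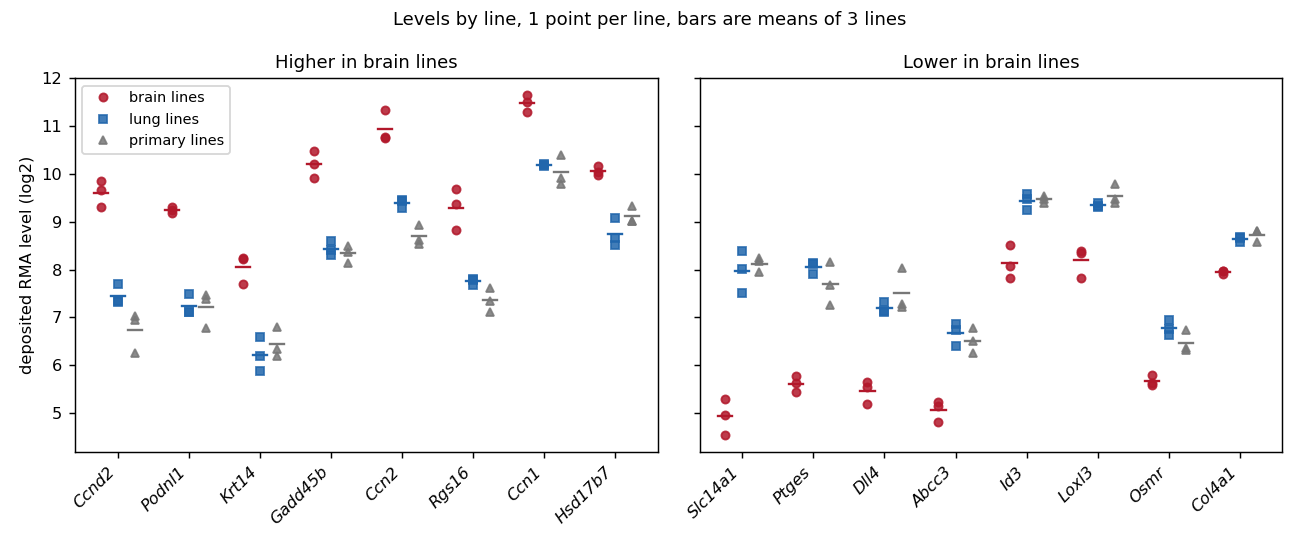
RMA levels (log2) of 16 genes that held in all 14 refits, 1 point per line and a bar at the mean of the 3 lines of an origin. In the left panel the brain lines (circles) sit above the lung lines (squares) for every gene, and under them for every gene in the right panel, and the primary lines (triangles) lie near the lung lines.

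Some lower genes had a wide spread in brain lines. Mmp3, stromelysin, stood at 9.66, 9.96 and 8.23 in brain lines and at 11.62, 11.81 and 11.40 in lung lines (-2.32 ± 0.38, adjusted p = 0.0193), and the call was lost without any of the lung lines, with adjusted p up to 0.0931. Hhip, which binds and blocks Hedgehog ligands, was 3.43-fold lower (7.76, 7.43 and 6.75 against 8.88, 9.48 and 8.90, adjusted p = 0.00946), lost without lung line 2 (0.0504). Olfm1, a secreted glycoprotein of nervous tissue, was 3.33-fold lower (6.70, 6.84 and 5.84 against 8.25, 8.39 and 7.95, adjusted p = 0.00843), also lost without lung line 2 (0.0514). In all 3 genes brain line 3 was the lowest of the 9 arrays. B4galt6, a galactosyltransferase of glycosphingolipid synthesis, was 4.16-fold lower (5.52, 4.21 and 4.59 against 6.71, 6.83 and 6.96, adjusted p = 0.0185), lost without brain lines 2 or 3 or any lung line (up to 0.0866). Pla2g7, which degrades platelet-activating factor, was 2.86-fold lower (7.70, 7.38 and 6.18 against 8.54, 8.84 and 8.42, adjusted p = 0.0410), lost without brain line 2, any lung line or any primary line (up to 0.165).

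Enzymes of cholesterol synthesis were higher in brain lines. Of 21 measured genes of cholesterol synthesis and uptake, 10 passed and all 10 were higher, where 0.913% of all genes were. The median difference of the list was 0.71, against -0.01 over all genes. In 16 of its genes all brain values were above the lung values, as in 1648 of all 19938 genes. Hsd17b7, a sterol ketone reductase, was at 10.04, 10.17 and 9.97 in brain and 8.51, 8.67 and 9.07 in lung lines, 2.47-fold higher (adjusted p = 0.00499), and it held in all 14 refits. Idi1, which isomerizes isopentenyl diphosphate, was at 10.88, 10.74 and 10.88 against 9.46, 9.43 and 10.18 (2.21-fold, adjusted p = 0.0221), and its dimmer probe set gave 1.12. The lanosterol demethylase Cyp51 was 2.10-fold higher (9.86, 9.80 and 9.60 against 8.39, 8.62 and 9.04, adjusted p = 0.0193). Lanosterol synthase, Lss, was 2.06-fold higher (9.87, 10.06 and 9.66 against 8.66, 8.68 and 9.12, adjusted p = 0.0101). The call of Idi1 was lost without any brain line or lung lines 1 or 2 (up to 0.101), that of Cyp51 without brain lines 1 or 2 or lung lines 1 or 2 (up to 0.0910) and that of Lss without lung line 2 (0.0633). Squalene epoxidase (Sqle), farnesyl diphosphate synthase (Fdps), the mevalonate pathway enzymes Mvd and Mvk, the methylsterol oxidase Msmo1 and the sterol desaturase Sc5d rose by 0.59 to 0.90 on the log2 scale. The calls of Fdps and Mvd were lost without any brain line or lung lines 1 or 2 (up to 0.101 and 0.103), those of Mvk, Msmo1 and Sc5d without brain lines 1 or 2 or lung lines 1 or 2 (up to 0.0955, 0.0919 and 0.0905), and that of Sqle without brain lines 1 or 2, any lung line or primary line 1 (up to 0.155). In each of the 10 genes lung line 3 was the highest lung line and primary line 3 the highest primary line. Over the 21 genes, brain lines 1, 2 and 3 averaged 0.56, 0.55 and 0.33 above the primary mean. Lung lines averaged -0.27, -0.27 and 0.09 and the single primary lines -0.09, -0.15 and 0.24 on that scale. The median difference of the list was 0.53 between brain and primary lines and -0.13 between lung and primary lines.

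Other steps of the same pathway did not pass. Hmgcs1, the synthase that starts the mevalonate pathway, had a difference of 0.79 (adjusted p = 0.112), and squalene synthase, Fdft1, 0.78 (adjusted p = 0.0728). Srebf2, encoding the transcription factor that switches the pathway on when sterols are scarce, had a difference of 0.48 (adjusted p = 0.0537) and Insig1, which holds that factor back, 0.60 (adjusted p = 0.0835). Dhcr7 and Ebp, late steps, had differences of -0.06 and -0.19. The count of 10 rested on several lines: it was 2 without brain line 1, 2 without brain line 2, 7 without brain line 3, 2 without lung line 1, 1 without lung line 2 and 1 with the 6 arrays alone. The list's median stayed between 0.64 and 0.84 over all alternatives. Fatty acid genes did not follow: Elovl6, which lengthens palmitate, was higher by 0.49 (adjusted p = 0.0378) and Srebf1, the related factor for fatty acid synthesis, lower by 0.49 ± 0.08 (adjusted p = 0.0161), while Cpt1a, the gate of mitochondrial fatty acid oxidation, was 1.94-fold lower (adjusted p = 0.0154). Over that list 1 gene of 39 was higher and 3 lower (background 0.913% and 1.07%). The Elovl6 call was lost without any brain or lung line or primary line 2 (up to 0.152), that of Srebf1 without any lung line (up to 0.0574) and that of Cpt1a without lung lines 1 or 2 (up to 0.0800).

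**Figure D2:**
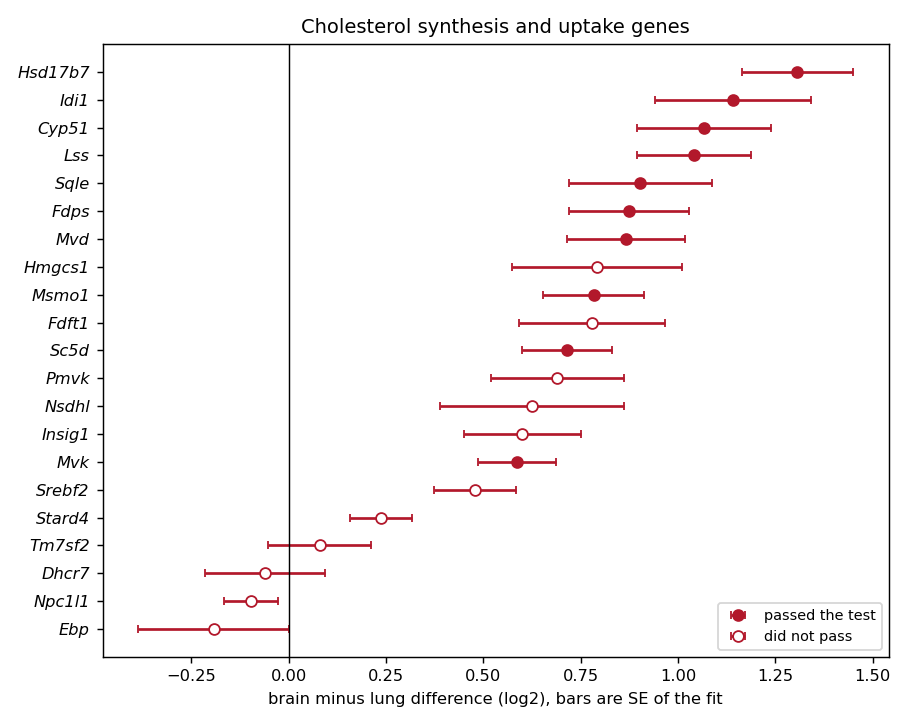
Brain minus lung difference (log2) of the 21 measured genes of cholesterol synthesis and uptake, with the standard error of the fit. Filled points are the 10 genes that passed, from Mvk at 0.59 to Hsd17b7 at 1.31; open points did not pass, and 3 of them lie below 0.

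Promoters of 4 of the genes that passed are shown because 10 members of the list were higher. RefSeq promoter windows on GRCm38.p6, from 250 bases before to 50 after a start, were found for 17 of the 21 genes, among them 8 of the 10 that passed. The CCAAT box, searched on both strands and so also as ATTGG, was in 17 of these 17 windows, in the 8 that passed and the 9 that did not, against 41.7% of 15614 tested genes with a window. The motif was added after the values had been seen. Of sterol response elements only the form TCACNCCAC was searched, on both strands. It was in none of the 8 and in 1 of the 9, Hmgcs1, against 1.40% of all. Other forms of the element were not searched, so these windows may hold them. A match is a description of letters and not a binding site. Only stretches before the start, cut from the windows so as to hold the marked boxes, are printed. Those of Hsd17b7 (minus strand, chr1:169969206-169969380), Idi1 (plus strand, chr13:8885486-8885605), Cyp51 (minus strand, chr5:4104698-4104817) and Lss (plus strand, chr10:76531458-76531577) are given 5′ to 3′ with the CCAAT box of either strand in capitals.
Hsd17b7: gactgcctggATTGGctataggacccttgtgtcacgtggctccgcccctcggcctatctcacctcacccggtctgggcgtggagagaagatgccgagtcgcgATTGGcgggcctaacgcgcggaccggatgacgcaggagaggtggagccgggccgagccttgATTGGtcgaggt
Idi1: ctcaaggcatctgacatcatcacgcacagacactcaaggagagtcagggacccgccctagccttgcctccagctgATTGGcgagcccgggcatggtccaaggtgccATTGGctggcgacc
Cyp51: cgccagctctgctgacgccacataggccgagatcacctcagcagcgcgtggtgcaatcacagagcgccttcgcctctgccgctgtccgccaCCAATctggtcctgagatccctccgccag
Lss: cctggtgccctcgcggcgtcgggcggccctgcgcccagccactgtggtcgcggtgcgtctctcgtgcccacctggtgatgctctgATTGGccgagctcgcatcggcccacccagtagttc

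Among targets and regulators of YAP and TEAD, 5 of 34 measured genes passed, all higher in brain lines (background 0.913%), and the list's median difference was 0.10. Ccn2, connective tissue growth factor, was at 10.75, 10.78 and 11.34 in brain and 9.30, 9.44 and 9.46 in lung lines (2.93-fold, adjusted p = 0.00377), and Ccn1, its sister matricellular protein, at 11.30, 11.51 and 11.65 against 10.21, 10.20 and 10.17 (2.45-fold, adjusted p = 0.00529). Both held in all 14 refits, and in both the lung lines lay closer together than the brain lines. Ajuba, a LIM protein that binds the inhibitory kinases of the pathway, was 2.11-fold higher (9.26, 9.24 and 9.83 against 8.30, 8.28 and 8.52, adjusted p = 0.0211), lost without any lung line (up to 0.0955). The kinase gene Nuak2 was higher by 0.64 (adjusted p = 0.0403) and the angiomotin-like Amotl2 by 0.60 (adjusted p = 0.0311), and both calls were lost without brain lines 2 or 3, any lung line, or primary lines 1 or 2 (up to 0.149 and 0.136), Nuak2 also without primary line 3 and with each array centred on its median (0.0524). Yap1 itself (-0.03, adjusted p = 0.919), its partner Wwtr1 (-0.21, adjusted p = 0.239) and the target Ankrd1 (0.22, adjusted p = 0.327) did not pass. The list's count was 2 without any 1 of the lung lines and 3 without brain lines 2 or 3 or primary line 1.

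The TEAD motif CATTCC, searched on both strands, was in the windows of all 3 genes of that list that passed and have a window, and in 10 of 22 that did not pass, against 15.1% of tested genes. In Ccn1 it starts 103 bases before the transcription start and in Amotl2 65 bases before it. The list was drawn up from targets and regulators of TEAD, so a share of TEAD motifs above that of tested genes follows largely from the choice of its members. It cannot show that the motif goes with a higher level in brain lines. Over all genes that passed and have a window, the share with the motif was nearly the same among those higher and those lower in brain lines. Stretches cut in the same way from the windows of Ccn1 (minus strand, chr3:145650053-145650172), Ajuba (minus strand, chr14:54577790-54577909) and Amotl2 (plus strand, chr9:102717655-102717774) are printed 5′ to 3′ with the motif in capitals.
Ccn1: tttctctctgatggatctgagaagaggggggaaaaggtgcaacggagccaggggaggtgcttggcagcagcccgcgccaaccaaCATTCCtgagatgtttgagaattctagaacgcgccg
Ajuba: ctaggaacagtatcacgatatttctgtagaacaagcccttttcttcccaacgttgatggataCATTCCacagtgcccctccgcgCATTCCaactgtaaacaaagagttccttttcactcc
Amotl2: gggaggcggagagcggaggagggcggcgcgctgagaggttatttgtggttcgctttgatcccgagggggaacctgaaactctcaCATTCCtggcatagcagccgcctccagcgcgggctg

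The list of p53 targets, on which Gadd45b was also placed, had 5 of 27 genes higher (background 0.913%) and none lower, with a median difference of 0.24. The activity of p53 itself was not tested. The count was 2 without brain lines 2 or 3 or lung lines 1 or 2, 3 without lung line 3 or primary line 2, and 2 with the 6 arrays alone. Besides Gadd45b these were Btg2, an anti-proliferative co-factor of mRNA decay, Plk2, a stress-induced kinase, Zmat3, an RNA-binding protein, and the death receptor gene Tnfrsf10b. Btg2 was at 5.34, 5.29 and 5.40 in brain and 4.73, 4.70 and 4.76 in lung lines (1.53-fold, adjusted p = 0.00499) and held in all 14 refits. Plk2 was 2.06-fold higher (adjusted p = 0.0398), a call lost in every fit without 1 line except that without brain line 1 (up to 0.126). Zmat3 was higher by 0.62 (adjusted p = 0.0281), lost without any brain or lung line or primary line 2 (up to 0.106), and Tnfrsf10b by 0.61 (adjusted p = 0.0230), lost without brain lines 2 or 3 or lung lines 1 or 2 (up to 0.0938). Mdm2, the feedback inhibitor of p53, had a difference of 0.25 (adjusted p = 0.138), and Ccng1 and Bbc3 of -0.02 and 0.01. Besides Ccnd2 no other of 27 cyclins, Cdks and G1 inhibitors passed, and Ccnd1 was at 12.43, 12.84 and 12.17 in brain and 12.65, 12.74 and 12.60 in lung lines, groups that overlap.

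Epithelial junction and basal keratin genes were higher where they differed. Of 41 junction and identity genes 5 passed, all higher, with a median difference of 0.17, and of 22 keratin and basal genes 3 passed, all higher (background 0.913% for both). The keratin count was 1 without lung line 1 or 2. Krt14, the keratin of basal cells, was at 7.71, 8.23 and 8.24 in brain and 5.87, 6.20 and 6.59 in lung lines (3.57-fold, adjusted p = 0.00631) and held in all 14 refits. Krt17, a keratin of injured and basal epithelium, was 2.82-fold higher (5.88, 6.45 and 6.98 against 4.66, 4.88 and 5.27, adjusted p = 0.0230), lost without brain lines 2 or 3 or any lung line (up to 0.103), and Krt80 1.75-fold (adjusted p = 0.0131), lost without lung lines 1 or 2 (up to 0.0663). Brain values lay above lung values in all 3 keratins. Cldn7, a tight junction claudin and also a marker on the mammary list, was 2.91-fold higher (9.36, 9.37 and 9.11 against 7.19, 7.75 and 8.26, adjusted p = 0.0442). Its call was lost with the mouse-number block (0.0594) and without any brain or lung line or primary line 2 (up to 0.152). Cgn, a tight junction scaffold, was 2.05-fold higher (adjusted p = 0.0226) and the polarity gene Pard6b 2.03-fold (adjusted p = 0.0215), both lost without brain lines 2 or 3 or lung lines 1 or 2 (up to 0.101 and 0.0905). The transcription factors Elf3 and Grhl2 were higher by 0.54 and 0.51 (adjusted p = 0.0352 and 0.0389), each called in 1 of the 9 fits without a line (up to 0.116 and 0.120), and neither with each array centred on its median (0.0537 and 0.0607). Cldn4 (1.55, adjusted p = 0.0555), Cdh1 (0.65, adjusted p = 0.134) and Epcam (0.53, adjusted p = 0.178) did not pass. The junction count was 0 without brain lines 2 or 3 or lung lines 1 or 2. The average of the mammary epithelium markers, which include Cldn7, Cdh1 and Epcam, was also higher in brain than in lung lines. Of its other members Krt19 (0.49) and Krt7 (0.37) had positive differences. Krt8 (-0.15), Krt18 (-0.05) and Spint2 (-0.09) had negative ones. The part of this average in these results was not tested.

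Antioxidant genes pointed the other way. Of 37 measured genes of glutathione handling and the NRF2 response, 5 passed and all were lower in brain lines (background 1.07%), with a list median of -0.11. The count was 0 without lung line 1 or 2, 1 without brain line 2 or lung line 3, 2 without brain line 3, 3 without primary line 1 or 2, and 2 with the 6 arrays alone. Nqo1, a quinone reductase, was at 5.81, 5.41 and 5.59 in brain and 6.96, 7.06 and 6.62 in lung lines (2.42-fold lower, adjusted p = 0.0128), lost without lung lines 1 or 2 (up to 0.0743). Slc7a11, which imports cystine for glutathione synthesis, was at 5.61, 5.63 and 5.61 against 6.51, 6.61 and 6.58 (1.93-fold lower, adjusted p = 0.0262), lost without any brain or lung line (up to 0.113). Gstp1, a glutathione transferase, was 1.49-fold lower (adjusted p = 0.0221), lost without brain line 2 or any lung line (up to 0.101). Mgst1 and Gsr, a microsomal transferase and glutathione reductase, were lower by 1.51 ± 0.33 and 0.34 ± 0.06, the weakest of the 5 calls. The call of Gsr was lost without brain lines 2 or 3, any lung line, or primary lines 1 or 2 (up to 0.127) and with each array centred on its median (0.0878), and that of Mgst1 with the block (0.0524) and in every fit without a line except that without brain line 1 (up to 0.166). The NRF2 gene Nfe2l2 (-0.34, adjusted p = 0.123) and the glutathione synthesis subunits Gclc (-0.17) and Gclm (-0.07) did not pass. In creatine handling, Ckb, the brain-type creatine kinase, was 1.74-fold lower (7.88, 7.71 and 7.31 against 8.41, 8.49 and 8.40, adjusted p = 0.0199) and Gamt, which makes creatine, 1.48-fold (adjusted p = 0.0221), both lost without any lung line (up to 0.0919 and 0.101), while Gatm, the step before Gamt, was at 8.78, 8.93 and 8.97 in brain and 7.19, 7.60 and 7.77 in lung lines and did not pass (1.37, adjusted p = 0.0782).

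Matrix genes split in both directions, where 0.913% of all genes were higher and 1.07% lower. Of 37 collagen and collagen-processing genes 1 passed as higher and 3 as lower, and the 4 calls held in all 14 refits. Col4a1 and Col4a2, the neighbouring genes of the main basement membrane collagen, were at 7.96, 7.97 and 7.91 and at 7.63, 7.63 and 7.44 in brain lines against 8.69, 8.67 and 8.59 and 8.36, 8.39 and 8.31 in lung lines, 1.63-fold and 1.73-fold lower (adjusted p = 0.00499 and 0.00645). Of the lysyl oxidases that cross-link collagen, Loxl3 was 2.21-fold lower (8.40, 8.36 and 7.83 against 9.33, 9.30 and 9.39, adjusted p = 0.00858) and Loxl4 1.93-fold higher (9.04, 9.36 and 8.99 against 8.10, 8.15 and 8.30, adjusted p = 0.00499). The matrix glycoprotein Thbs1, thrombospondin, was 1.92-fold higher (11.71, 11.51 and 11.67 against 10.59, 10.74 and 10.74, adjusted p = 0.00453) and held in all 14 refits. Among 49 matrix proteases and inhibitors 4 were higher and 2 lower. Mmp9, a gelatinase, was 2.52-fold higher (8.34, 8.21 and 8.998 against 7.34, 7.01 and 7.20, adjusted p = 0.00899), lost without lung line 2 (0.0528), and Adam12 and Adamts1, membrane-bound and secreted metalloproteases, 2.81-fold and 2.62-fold (adjusted p = 0.0147 and 0.0270), lost without brain line 2 or any lung line for Adam12 (up to 0.0635) and without brain lines 2 or 3 or lung lines 1 or 2 for Adamts1 (up to 0.118). Mmp13, a collagenase, was lower like Mmp3, by 1.10 ± 0.19 (adjusted p = 0.0214), lost without brain line 3 or lung lines 2 or 3 (up to 0.0955). St14, matriptase, was higher by 0.61 (adjusted p = 0.0423), a call lost with the block (0.0621) and without any brain line, lung lines 1 or 2, or primary lines 1 or 2 (up to 0.165). Of 24 integrin genes Itga8 was 2.47-fold lower (adjusted p = 0.0124) and Fermt1, the kindlin of epithelium, 1.95-fold higher (adjusted p = 0.0406), calls lost without lung lines 2 or 3 for Itga8 (up to 0.0734) and without brain lines 2 or 3, any lung line or primary line 1 for Fermt1 (up to 0.138).

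**Figure D3:**
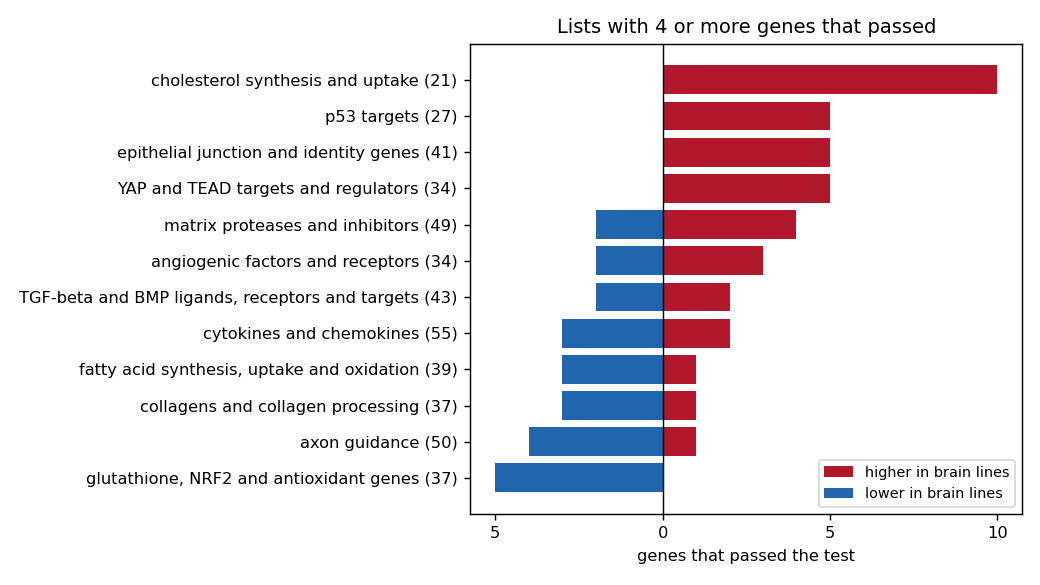
Number of genes that passed in brain against lung lines for the 12 lists with at least 4 such genes, with the number measured in brackets; bars to the right are higher and bars to the left lower in brain lines. Cholesterol synthesis (10), p53, junction and YAP lists (5 each) have bars to the right only, and the antioxidant list (5) a bar to the left only.

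Signaling genes also differed one by one, where 0.913% of all genes were higher and 1.07% lower. In the TGF-beta and BMP list of 43 genes 2 were higher and 2 lower. Id3, an inhibitor of differentiation induced by BMP, was at 7.83, 8.07 and 8.52 in brain and 9.24, 9.57 and 9.48 in lung lines (2.45-fold lower, adjusted p = 0.00633), and Pmepa1, which dampens TGF-beta signaling, at 10.72, 10.82 and 11.09 against 9.91, 10.12 and 9.96 (1.84-fold higher, adjusted p = 0.00631); both held in all 14 refits. The co-receptor gene Tgfbr3 was 2.37-fold lower (adjusted p = 0.0148), lost without any lung line (up to 0.0646), and the activin antagonist Fstl3 1.83-fold higher (adjusted p = 0.0187), lost without lung lines 1 or 2 (up to 0.0905). Foxc2, a mesenchymal transcription factor, was 1.91-fold lower (7.29, 7.40 and 7.21 against 8.30, 8.26 and 8.14, adjusted p = 0.00203) and held in all 14 refits, the only gene of 28 on the mesenchymal list that passed. Of 44 Wnt genes Wnt10a (1.66-fold, adjusted p = 0.00571, in all 14 refits) and Wnt7a (2.82-fold, adjusted p = 0.0311) were higher, the latter lost without brain lines 2 or 3, any lung line or primary line 2 (up to 0.114). Etv1, an Ets factor of the ERK pathway, was 1.65-fold lower (adjusted p = 0.00843), held in all 14 refits and had a difference of -0.65 in its other probe set. Its list of 29 genes also had Spry1, a feedback inhibitor of ERK, 1.95-fold higher (adjusted p = 0.0215), lost without any brain line or lung lines 1 or 2 (up to 0.0905), and the EGF receptor ligand Tgfa 1.45-fold lower (adjusted p = 0.0301), lost without brain lines 1 or 3, any lung line or primary line 1 (up to 0.128).

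Among 34 angiogenic factors and receptors 3 were higher and 2 lower. For this list and the next ones the background was 0.913% higher and 1.07% lower. Pdgfb, the growth factor that recruits pericytes, was at 8.47, 8.42 and 8.90 in brain and 6.63, 7.16 and 7.25 in lung lines (2.99-fold higher, adjusted p = 0.0109), lost without lung line 2 (0.0516). With Angpt1, the integrin ligand Edil3 was lower (2.38-fold, adjusted p = 0.0393), lost without brain lines 1 or 2, any lung line or primary lines 1 or 2 (up to 0.143). Of 55 cytokine and chemokine genes 2 were higher and 3 lower. Csf1, the growth factor of macrophages, was at 9.88, 9.89 and 9.72 in brain and 9.28, 9.28 and 9.10 in lung lines (0.61 ± 0.08, adjusted p = 0.00899) and held in all 14 refits. Cxcl16 was 2.37-fold higher (adjusted p = 0.0340), a call lost with the block (0.0525) and without any brain or lung line or primary line 2 (up to 0.115). Osmr, Ccl2 and Tnfsf10 were lower, the last with brain values at background (4.05, 4.21 and 3.74) against 4.74, 4.79 and 4.81 (adjusted p = 0.0175), a call lost without any lung line (up to 0.0800). In axon guidance, 1 of 50 genes was higher and 4 lower. Sema4c, a semaphorin that binds plexin receptors, was 2.35-fold lower (8.36, 8.54 and 8.94 against 9.70, 9.64 and 10.20, adjusted p = 0.0101) and held in the 9 fits without a line, but not with the 6 arrays alone (0.0552) or over all probe sets (0.0514). Sema4d was higher by 0.61 in its brighter probe set (adjusted p = 0.0101, lost without lung line 2 at 0.0605) and had a difference of -0.15 in its dimmer one. Car12, a membrane carbonic anhydrase that acidifies the surroundings of the cell, was 2.08-fold higher (8.82, 8.79 and 9.13 against 7.77, 7.81 and 7.99, adjusted p = 0.00686) and held in all 14 refits, and Car9, its hypoxia-induced relative, 1.90-fold (adjusted p = 0.0251), lost without any lung line (up to 0.108). They and Bhlhe40 (1.04, adjusted p = 0.0494) were the 3 of 29 hypoxia genes that passed, and Bhlhe40 was called in 1 of the 9 fits without a line (up to 0.143) and not with each array centred on its median (0.0569).

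In the other lists 1 or 2 genes passed in a direction, where 0.913% of all genes were higher and 1.07% lower. Laminins and matrix glycoproteins had 2 of 32 higher, Thbs1 and Igfbp7, and the insulin-like growth factor system 2 of 16, Igfbp7 and Igf2bp1. Igf2bp1 was higher by 0.81, a call lost without any brain or lung line or primary line 2 (adjusted p up to 0.15). Its other probe set had a difference of 0.08. The count of the insulin-like growth factor list was 0 without brain lines 2 or 3 or lung lines 1 or 2. Of carbonic anhydrases and acid export 2 of 22 were higher, of immediate early genes 1 of 27, and of urea, arginine and polyamine genes 1 of 21 higher and 1 lower, the latter Slc14a1. The unfolded protein list had 2 of 37 lower, and the adhesion (32), Notch (30) and Hedgehog (14) lists 1 each.

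In 9 lists no gene passed the limma test: glutamate and GABA handling, synaptic and neuronal genes, luminal mammary genes, connexins, the interferon response, MHC class I processing, glycolysis, respiratory chain subunits, and replication and mitosis. They hold 232 genes, of which 16 were higher and 21 lower at an unadjusted p under 0.05, where 2971 of all 19938 genes passed that threshold. Erbb3 of the luminal list, a receptor of neuregulins, was at 7.12, 7.11 and 6.85 in brain and 6.46, 6.15 and 6.15 in lung lines and did not pass (0.77, adjusted p = 0.0571), but passed under 9 alternatives, among them the mouse-number block (0.0147), centring each array on its median (0.0312), renewed quantile normalization (0.0421) and leaving out primary line 1 or 3 (0.0311 and 0.0343). Mki67, a proliferation marker, was at 9.54, 9.71 and 9.50 in brain and 10.19, 10.10 and 9.88 in lung lines, which do not overlap, and did not pass (-0.47, adjusted p = 0.169). Of the synaptic and neuronal genes, Map2 was at 7.12, 7.14 and 6.89 in brain and 7.36, 7.53 and 7.30 in lung lines (-0.34, adjusted p = 0.102; 0.0497 with the mouse-number block) and Tubb3 overlapped. Of 31 genes described in the field for brain metastasis, Mmp9 was higher and Mmp3 and Tnfsf10 lower in brain lines (background 0.913% and 1.07%). Of 27 described for lung metastasis, Id3 and Ccl2 were higher in lung lines, and Vcam1, Tnc, Postn and Angptl4 did not pass.

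The primary tumor lines gave a reference point that the contrast itself does not use, apart from the spread. For each gene the primary mean was placed on a scale with the lung mean at 0 and the brain mean at 1. For 336 of the 395 genes (85.1%) the primary mean lay near or beyond the lung mean, that is outside the middle and upper parts when the span from 0 to 1 is cut into 3 equal parts. In 190 of these 336 it lay below 0, on the far side of the lung mean from the brain mean. For 52 genes it lay in the middle part and for 7 in the part next to the brain mean or beyond it. Over all genes these shares were 52.4%, 12.6% and 34.9%. The median position of the 395 was 0.01, with medians of 0.08, -0.01 and 0.01 when primary lines 1, 2 and 3 were taken singly, and 0.27 over all genes. In 335 genes (84.8%, against 33.7% of all genes) each primary line was on the lung side of the midpoint. Comparisons with primary lines share arrays with the present one, so their values are given side by side only. In the limma fit 624 genes passed in brain against primary lines (3.13%) and 0 (0%) in lung against primary lines. In the latter 541 genes were higher and 405 lower at an unadjusted p under 0.05. About 997 in both directions together would be expected by chance. Ccnd2 differed by 2.86 ± 0.21 between brain and primary lines and by 0.71 ± 0.21 between lung and primary lines, and Slc14a1 by -3.19 ± 0.23 and -0.15 ± 0.23.

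**Figure D4:**
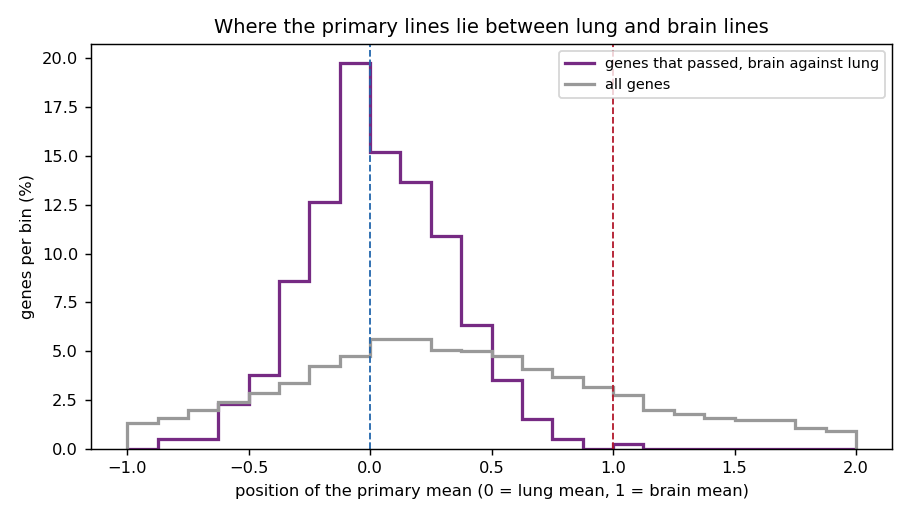
Distribution of the position of the primary mean between the lung mean (0) and the brain mean (1), in percent of genes per bin of 0.125, for the 395 genes that passed and for all genes; positions outside -1 to 2 are not drawn, 27.5% of all genes and none of the 395. The genes that passed form a peak at 0, where the lung lines lie, and few reach 1.

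Some of the genes with primary lines in between also held in all 14 refits. Bscl2, the seipin of lipid droplet formation, was at 5.46, 5.27 and 5.29 in brain, 5.95, 6.16 and 5.94 in primary and 6.17, 6.69 and 6.37 in lung lines (brain against lung 2.10-fold lower, adjusted p = 0.00631). Gsdme, a gasdermin that forms pores in dying cells, was at 5.69, 5.62 and 5.67, 6.20, 6.43 and 6.18, and 6.50, 6.97 and 6.55 in the same order (2.02-fold lower, adjusted p = 0.00633), but its dimmer probe set had a difference of 0.36. In neither gene did the brain lines overlap with any other line. Idi1, Cyp51 and Msmo1 of cholesterol synthesis also had primary lines in between, at positions 0.36, 0.43 and 0.38, and did not hold in all 14 refits. They did not pass in brain against primary lines (limma, adjusted p = 0.0896, 0.101 and 0.0803).

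The 7 genes for which the lung lines stood apart from both other origins were Zfp979, Padi3, Cck, Ccl2, Abcg1, Cpt1c and Tmem107. Zfp979, a zinc finger gene, was at background in lung lines (2.92, 3.54 and 3.28) and at 5.57, 5.34 and 4.77 in brain and 5.10, 4.45 and 5.12 in primary lines, and held in all 14 refits. Padi3, which converts arginine of proteins to citrulline, was at 6.57, 6.63 and 6.48 in lung lines, at 7.79, 7.68 and 7.34 in brain lines and at 8.24, 7.48 and 7.41 in primary lines (brain against lung 2.06-fold, adjusted p = 0.0311), lost without brain lines 1 or 2 or any lung line (up to 0.114). Ccl2, the chemokine that attracts monocytes, was highest in lung lines (5.34, 5.87 and 5.90) and at 4.71, 4.65 and 4.52 in brain and 5.04, 5.05 and 4.61 in primary lines, 2.11-fold lower in brain than in lung lines (adjusted p = 0.0146), lost without lung lines 2 or 3 (up to 0.0768). Cck, a neuropeptide gene, spread widely over the lung lines (7.05, 6.17 and 5.51) and was at 4.71, 4.40 and 4.55 in brain lines (adjusted p = 0.0310), lost without any brain line, lung lines 1 or 2, or primary lines 1 or 2 (up to 0.115). The cholesterol exporter Abcg1 was 1.67-fold lower in brain than in lung lines (adjusted p = 0.0306, lost without any brain line or lung lines 1 or 2, up to 0.136), Cpt1c, a neuronal relative of Cpt1a, 1.43-fold (adjusted p = 0.0211, lost without brain lines 1 or 3 or lung lines 2 or 3, up to 0.0946) and Tmem107 1.36-fold (adjusted p = 0.0329, lost without any brain line, lung lines 2 or 3, or primary lines 1 or 2, up to 0.130, and with each array centred on its median, 0.0980). None of the 7 passed in lung against primary lines, where each had an adjusted p of 0.975.

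The genes that passed were unevenly spread over the chromosomes, which were taken from RefSeq on GRCm38.p6. Chromosome 3 held 35 genes that were higher, 3.70% of its 945, where 0.913% were over all chromosomes, and 4 that were lower. Chromosome 8 held 38 that were lower, 3.95% of its 961 against 1.07%, and chromosome 19 held 20, 2.95% of its 678. On the X chromosome 14 of 742 genes were lower and 0 higher. The tilt was not limited to genes that passed. Among the 662 genes of chromosome 3 above background, 69.3% had a positive difference with a median of 0.11, and brain lines 1, 2 and 3 averaged 0.11, 0.09 and 0.12 above the primary mean where the lung lines averaged -0.04, 0.02 and -0.01. Among 784 such genes of chromosome 8, 32.5% were positive, and the brain lines averaged -0.11, -0.09 and -0.11 against -0.01, -0.01 and -0.04 in the lung lines. The brain and lung lines did not overlap in either average. On the X chromosome the 375 genes had a median of -0.14, but brain line 2, at 0.03, lay close to lung lines 1 and 3, at 0.04 and 0.05. Over all 14456 genes above background 47.1% were positive.

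Several genes named above lie on these chromosomes. Rab25, Fdps, Ccn1, Cgn, Spry1, Zmat3, Elovl6 and Csf1 are among those higher on chromosome 3. Col4a1, Col4a2, Gsr, Hhip, Nqo1 and Foxc2 are among those lower on chromosome 8, while Podnl1, Mvd and Msmo1 on the same chromosome were higher. A run of chromosome 8 from Insr to Galnt7, chosen after its values were seen, held 27 of the 38 lower genes among 313 (8.63%), with brain lines averaging -0.17, -0.15 and -0.11 and lung lines -0.01, -0.000594 and -0.02 against the primary mean. Differences of these genes on chromosome 3 included 2.31 for Rab25, 1.29 for Ccn1 and 0.49 for Elovl6. Those on chromosome 8 included -1.78 for Hhip, -1.28 for Nqo1 and -0.70 for Col4a1. The genes were picked because they passed, so setting them against the chromosome averages tells nothing about the shift. The part of the chromosome-wide shift in the single genes was not tested.

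**Figure D5:**
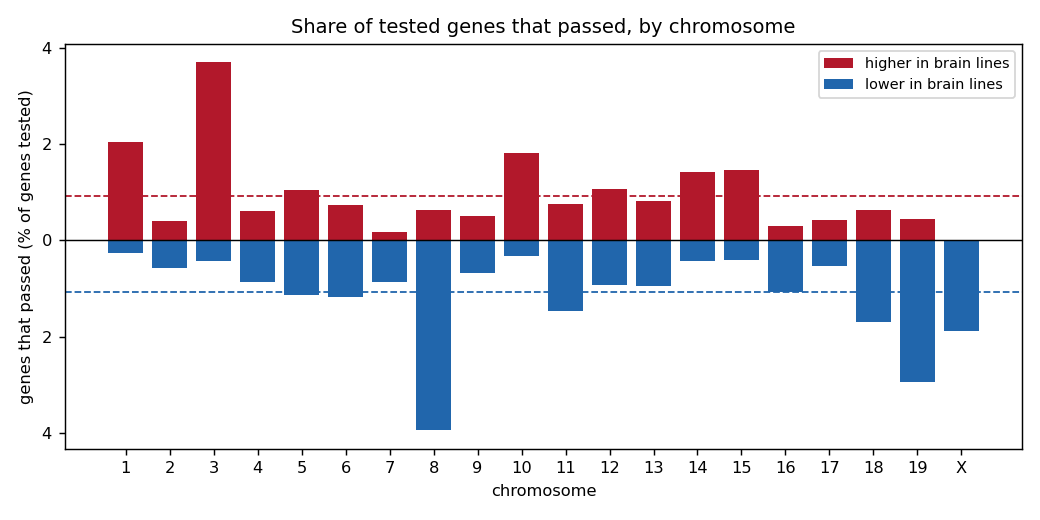
Share of tested genes (%) that passed in brain against lung lines, by chromosome, higher in brain lines upward and lower downward, with the shares over all genes (0.913% and 1.07%) as dashed lines. Chromosome 3 stands out upward at 3.70%, and chromosomes 8 (3.95%) and 19 (2.95%) downward.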

How the data were processed

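RNA of 9 cultured lines was hybridised to Affymetrix Mouse Gene ST arrays, 1 array a line. The deposited values are log2 levels made by the authors with RMA, per the submitters' processing notes; the version of the software was not given in the sources used here, nor was a build. Probe sets were named from the platform annotation: of 35557, 21789 had 1 symbol, 1621 several and 12147 none. For the 999 genes with several probe sets, the one with the highest mean was kept. One limma model (3.58.1, R 4.3.3) was fitted to the 9 arrays over 19938 genes, with the contrast of brain against lung lines and Benjamini-Hochberg adjustment, and was tested on simulated data. Tables and figures were made with Python 3.11.15, pandas 2.3.3 and matplotlib 3.10.9.

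The comparison, its members, 41 gene lists and 9 marker lists were chosen with earlier results of these data known, and the CCAAT motif, 1 of 9 searched, was added after the data were seen. Of 1264 listed symbols 1184 matched. The rule for named genes took, among genes that passed without overlap and leaving out predicted genes and olfactory, vomeronasal, histone, immunoglobulin, T cell receptor and small RNA families, the 14 largest rises and falls, up to 8 in each direction with primary lines near brain lines and up to 6 in between, up to 4 per list, and the 2 largest changes of a list with none. The text describes most of them, and other genes were named after their values were seen. Deviations of brain and lung lines with the same mouse number correlated at 0.284, 0.130 and 0.241, all above 0.1, although the 9 lines came from different mice, so the number was also fitted as a block. Alternatives were other scalings, filters, variance settings, probe set rules, the 6 arrays alone, and leaving out each line. With 3 lines an origin, their number limits the precision.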

Additional observations from a re-analysis of the deposited data

How the results depend on the processing

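No called gene reversed under any alternative, though only the other scalings and averaging probe sets within a gene could have changed a sign. The 395 genes became 3 without variance moderation, 107 with the 6 arrays alone, 92 probe sets over every probe set, 66 genes at an adjusted p under 0.01, and 69 to 417 when 1 line was left out. Genes higher in brain lines (182) became 2, 44, 36 and 29 under the same 4 settings and 34 to 195 without a line; those lower (213) became 1, 63, 56 and 37, and 35 to 222. Genes at least 2-fold apart (90) became 0, 41, 36 and 35, and 30 to 90. The counts over every probe set are of probe sets, with or without a gene symbol. Of the 395 genes 75 still passed in that setting. The limma fit without moderation kept 6 residual degrees of freedom.

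With the mouse number as a replicate block 566 genes passed, 274 of them higher, and 375 of the 395 remained. The block combined with the 6 arrays, an alternative chosen after seeing the data, gave 233 genes, 113 higher and 120 lower. Beside the calls given with their blocked value, the block ended that of Igf2bp1 (0.0648).

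The median position of the primary lines (0.01) was 0.259 without moderation, 0.0721 with array weights, -0.0423 over every probe set and -0.0468 at an adjusted p under 0.01, and -0.042 to 0.0748 without a line. The share near or beyond the lung mean (85.1%) was 66.7% without moderation, 79.2% with array weights and 76.8% to 87.0% without a line. Other scalings, the filters on dim genes and averaging probe sets within a gene gave 306 to 516 genes. The cause of these differences was not tested.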
